A study of Arabidopsis thaliana with 6 samples.

Results

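A set of 10 of the 28 tau-class glutathione S-transferase genes of Arabidopsis thaliana, GSTU1 to GSTU5, GSTU7, GSTU10, GSTU19, GSTU24 and GSTU25, was examined in RNA sequencing counts of seedlings. The genes were taken by their locus identifiers and were 10 of the 32744 genes in the deposited tables. The series held 3 wild-type libraries and 3 libraries whose labels name a double mutant, of the genes AT4G15640 and AT3G21465. All 6 libraries came from untreated seedlings at Boyes growth stage 1.04, the stage set by the number of opened leaves, and no accession, allele, plant age or number of pooled plants is given in the labels. The comparison asks how transcripts of these enzymes differ between the genotypes.

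Glutathione S-transferases join the tripeptide glutathione to reactive or foreign compounds, and some also reduce peroxides. The conjugates are then carried into the vacuole by ABCC pumps and broken down. The tau class occurs in plants and is the largest class in Arabidopsis, where many members are induced by herbicide safeners, reactive oxylipins and oxidative stress. TGA transcription factors, which bind TGACG elements, act with the GRAS protein SCL14 on part of this detoxification programme, and NAC factors such as NAC13 and NAC017 carry signals from impaired mitochondria to the nucleus.

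Total counts per library ranged from 53193772 to 78671470. Plastid genes made up 55.2% to 57.3% of them in wild type and 44.1% to 49% in the libraries labelled as mutant. The TMM scaling factors were 0.88 to 0.91 in wild type and 1.04 to 1.18 in the others. Of the targeted genes, AT3G21465 had 381, 561 and 509 counts in the wild-type libraries against 385, 350 and 340 in the others, which was 7.87, 8.45 and 7.46 CPM (counts per 1000000 of the TMM-adjusted total) against 4.72, 4.32 and 4.80 CPM. The log2 fold change of AT3G21465 was -0.78 ± 0.08 (SE; adjusted p of 8.95e-05 by edgeR). AT4G15640 had 11.2, 13.2 and 11.5 CPM in wild type and was not lower in the others, at 12.7, 13.3 and 14.2 CPM (log2 fold change 0.16 ± 0.08; adjusted p of 0.121 by edgeR, range over alternatives 0.0338 to 0.33, passing as higher without wild-type replicate 2). A count over a whole gene does not show whether a transcript is intact. Because the level of AT4G15640 does not show the mutation that the label names, these are written of as labelled mutant libraries. All directions depend on the labels being right. Leaf markers had summed levels of 6260 to 7660 CPM in wild type and 3490 to 3940 CPM in the others, most of it from RBCS1A (4732 ± 629 and 2063 ± 117 CPM, SD, n = 3 each). Of the 4 leaf markers 3 were lower, LHCB1.1 and PSAD1 with log2 fold changes of -0.36 and -0.37, and LHCA1 (-0.18) did not pass. Seed and flower markers were at summed levels of 4.58 CPM or less. Root markers were present too, which matches whole seedlings, but their summed level was 1230 CPM in wild-type replicate 1, 828 and 863 CPM in the other wild-type libraries and 511 to 563 CPM in the labelled mutant libraries. Most of this sum was PYK10; of the 6 root markers 4 were lower, MYB36 was higher (log2 fold change 0.76) and EXPA7 did not pass. All 6 were highest, among the wild-type libraries, in replicate 1. Among the libraries labelled as mutant, 5 of the 6 were highest in replicate 1. In seedling RNA, fewer cells of a type and less RNA per cell cannot be told apart.

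Of the 10 genes, 6 lie in a cluster on the minus strand of chromosome 2 (TAIR10 coordinates throughout): GSTU7 (AT2G29420, 12617936 to 12618899), GSTU5 (AT2G29450, 12624403 to 12625790), GSTU4 (AT2G29460, 12626478 to 12627891), GSTU3 (AT2G29470, 12628422 to 12629640), GSTU2 (AT2G29480, 12630198 to 12631321) and GSTU1 (AT2G29490, 12631341 to 12632538). GSTU24 (AT1G17170, 5869543 to 5870883) and GSTU25 (AT1G17180, 5872024 to 5873124) are neighbours on the plus strand of chromosome 1. GSTU10 (AT1G74590, 28023627 to 28024860) and GSTU19 (AT1G78380, 29486387 to 29488007) are on its minus strand. Each gene has 2 exons and encodes between 218 and 232 amino acids. Coding sequences of the 45 pairs were 53.3% to 85.5% identical, with GSTU1 and GSTU2 closest and GSTU24 and GSTU25 at 79.2%. GSTU10 stood farthest from the rest, at 53.3% to 58.5%. No exact stretch of 50 bases of their spliced exons was shared between any of the 10 genes and another nuclear gene, so reads of that length or longer without mismatches can be told apart, although reads with several alignments were counted at each of them. GSTU10 shares 21 exon bases with AT1G74600 on the same strand, where reads were not assigned to either gene.

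The sequences just before the annotated starts of GSTU25 and GSTU24, which rose most, of GSTU4, which rose and holds no match, and of GSTU7 and GSTU1, which hold the most TGACG matches of the 10 genes, are shown to let the letters be read beside the values. They run 5′ to 3′ towards the start of the gene and were read from the RefSeq TAIR10.1 assembly, in which all 10 genes have the coordinates of the deposited tables. Capitals mark TGACG on either strand, so that CGTCA is a match on the opposite strand. For GSTU24 the sequence begins just after the annotated exon of the neighbouring gene AT1G17160.
GSTU25 (chr1:5871774-5872023, plus strand): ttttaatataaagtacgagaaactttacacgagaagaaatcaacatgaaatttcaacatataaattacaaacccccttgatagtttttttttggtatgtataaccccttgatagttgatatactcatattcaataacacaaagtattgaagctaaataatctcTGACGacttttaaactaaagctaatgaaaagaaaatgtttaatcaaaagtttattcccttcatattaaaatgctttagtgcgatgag
GSTU24 (chr1:5869437-5869542, plus strand): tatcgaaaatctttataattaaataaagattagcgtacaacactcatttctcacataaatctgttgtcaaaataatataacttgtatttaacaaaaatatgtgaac
GSTU4 (chr2:12627892-12628141, minus strand): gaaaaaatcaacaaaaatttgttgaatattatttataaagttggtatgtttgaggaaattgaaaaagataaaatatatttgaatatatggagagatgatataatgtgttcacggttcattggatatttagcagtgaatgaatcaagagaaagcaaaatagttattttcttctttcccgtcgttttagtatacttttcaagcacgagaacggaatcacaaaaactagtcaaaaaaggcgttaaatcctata
GSTU7 (chr2:12618900-12619149, minus strand): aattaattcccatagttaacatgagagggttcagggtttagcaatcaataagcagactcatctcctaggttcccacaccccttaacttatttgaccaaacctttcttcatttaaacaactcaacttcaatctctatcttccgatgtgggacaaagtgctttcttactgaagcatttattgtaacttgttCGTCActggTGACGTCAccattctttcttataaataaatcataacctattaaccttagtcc
GSTU1 (chr2:12632539-12632788, minus strand): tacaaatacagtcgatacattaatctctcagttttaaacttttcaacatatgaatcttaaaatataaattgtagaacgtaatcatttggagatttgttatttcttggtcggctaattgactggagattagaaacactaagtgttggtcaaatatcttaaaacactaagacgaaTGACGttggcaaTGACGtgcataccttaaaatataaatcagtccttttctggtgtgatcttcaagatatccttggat
The 250 bases before the start held TGACG in 6 of the 10 genes and in 5 of the 18 other tau-class genes, against 18.4% of 32546 nuclear genes. Each window was counted whole, including any exons of other genes in it. GSTU7 had 3 matches, all between 61 and 45 bases before the start, GSTU1 had 2, and GSTU3, GSTU5, GSTU24 and GSTU25 had 1 each. The matches of GSTU7 at 52 to 48 and 49 to 45 bases overlap on opposite strands, as the palindrome TGACGTCA. The match of GSTU24, at 169 to 165 bases before the start, lies in the annotated exon of AT1G17160 and is not in the sequence shown. GSTU2, GSTU4, GSTU10 and GSTU19 had none. An exon of GSTU1 came within 19 bases of the start of GSTU2, and an exon of AT1G74600 reached the start of GSTU10. For GSTU5 an exon of AT2G29452 came within 63 bases, and its match, at 142 to 138 bases, lies farther out. TTGAC, the core of the W-box bound by WRKY factors, which overlaps TGACG where the letters TTGACG occur, was found in 8 of the 10 genes and in 44.3% of nuclear genes. The mitochondrial dysfunction motif, the binding element of NAC13 and NAC017, was found in none of the 10 and in 1.17% of nuclear genes. These matches describe the letters of this window and do not show binding, and their relation to the level of a gene was not tested.

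Of the 10 genes, 9 passed the filter on low counts and were tested; GSTU3 was not. At an edgeR adjusted p under 0.05, GSTU25, GSTU24, GSTU10 and GSTU4 were higher in the labelled mutant libraries and GSTU5 and GSTU2 were lower, while GSTU19, GSTU1 and GSTU7 did not pass. Across all 21805 tested genes 52.4% passed, 26.3% as higher and 26.0% as lower, and of the 9 genes 66.7% passed. The median log2 fold change was 0.31 for the 9 genes and 0.01 for all tested genes. Of the 9, 3 rose by more than 2-fold, which 7.05% of tested genes did. In 5 of the 9 the groups did not overlap, against 61.8% of tested genes.

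GSTU25, one of a pair of enzymes known to conjugate the explosive TNT, rose most of the 9 tested genes. It had 7.06, 3.86 and 5.27 CPM in the wild-type libraries against 27.5, 28.3 and 31.5 CPM in the labelled mutant libraries. Each labelled mutant library lay far above each wild-type library, and they differed little among themselves. The mean rose from 5.397 ± 1.61 to 29.1 ± 2.17 CPM (SD, n = 3 each), 5.45-fold, a log2 fold change of 2.45 ± 0.18 (SE; adjusted p of 1.13e-05 by edgeR; 95% interval 2.04 to 2.85).

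Its neighbour GSTU24, the other enzyme of that pair, had 6.34, 4.47 and 4.45 CPM in wild type against 12.9, 12.9 and 15.1 CPM in the labelled mutant libraries. The groups did not overlap. The rise was 2.699-fold, from 5.09 ± 1.08 to 13.6 ± 1.28 CPM (SD, n = 3 each), with a log2 fold change of 1.43 ± 0.14 (SE; adjusted p of 5.23e-05 by edgeR). The ratio of the neighbours, which does not depend on library scaling, also moved. The log2 ratio of GSTU25 to GSTU24 counts was 0.16, -0.21 and 0.24 in the wild-type libraries against 1.09, 1.13 and 1.06 in the labelled mutant libraries. The pair thus had near-equal counts in wild type, and GSTU25 had about 1.03 log2 units more in the others, relative to GSTU24 (exact two-sided permutation p = 0.1, the smallest that 3 against 3 libraries allow; adjusted p = 0.1 over the 3 pairs of neighbours compared).

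GSTU10, whose coding sequence is the most distant of the 10, had 1.59, 1.14 and 1.1 CPM in wild type against 2.69, 2.52 and 2.58 CPM in the labelled mutant libraries. All labelled mutant libraries were above all wild-type libraries, from 75 to 77 counts per library to 183 to 220. The log2 fold change was 1.04 ± 0.16 (SE; adjusted p of 0.000633 by edgeR), a 2.06-fold rise. It kept its call in every alternative tried.

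**Figure D1:**
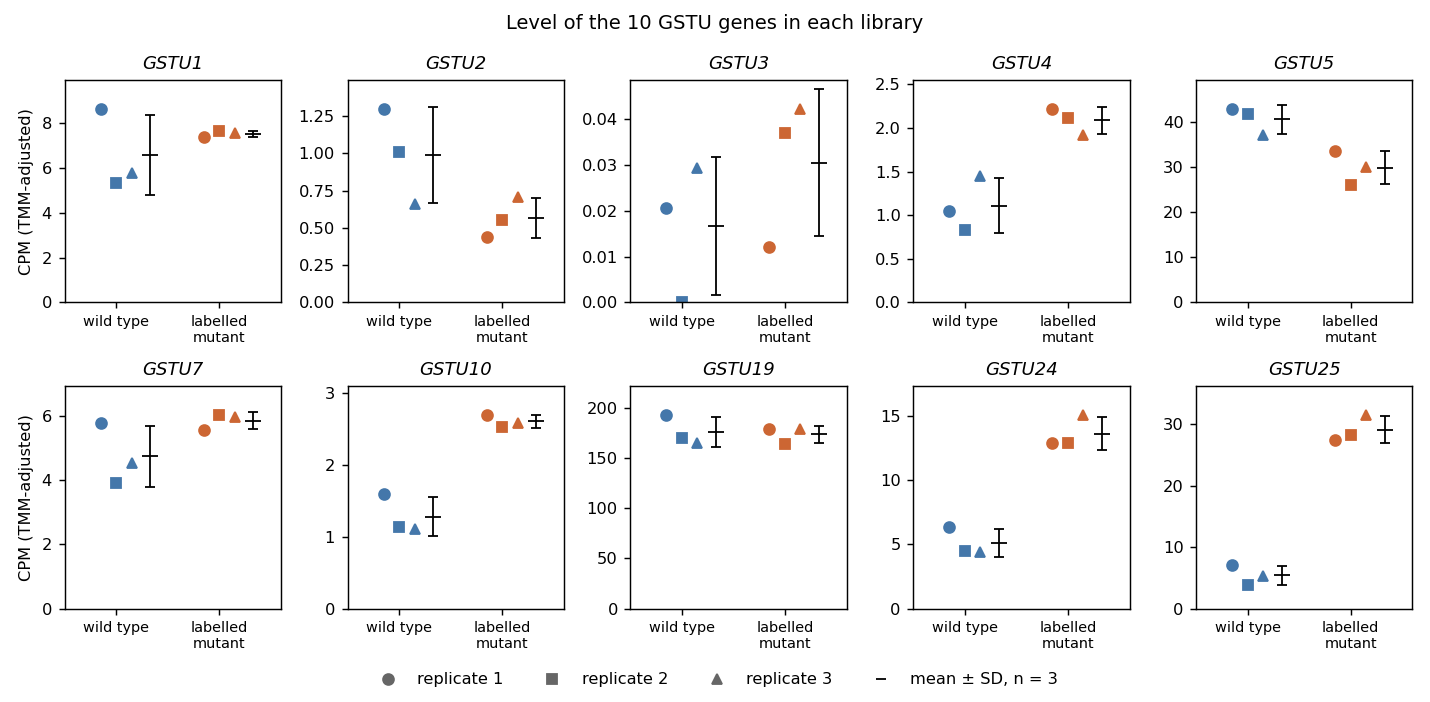
Level of each of the 10 genes in CPM on TMM-adjusted totals (vertical axes, each from 0), with 1 point per library (circle, square and triangle for replicates 1, 2 and 3; blue wild type, orange labelled mutant) and the mean ± SD of 3 libraries in black. GSTU25, GSTU24, GSTU10 and GSTU4 have no overlap between groups and are higher in the labelled mutant libraries, GSTU5 has no overlap and is lower, and wild-type replicate 1 is the highest wild-type point in 8 of the 9 tested genes.

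In the cluster on chromosome 2, neighbouring genes went different ways. GSTU4 had 1.05, 0.828 and 1.45 CPM in wild type against 2.22, 2.12 and 1.92 CPM in the labelled mutant libraries. These are 51 to 99 counts against 136 to 181, with no overlap. The log2 fold change was 0.91 ± 0.20 (SE; adjusted p of 0.00503 by edgeR), a 1.87-fold rise.

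GSTU5, the next gene of the cluster, is known as an auxin-inducible transferase. It had 42.9, 41.8 and 37.0 CPM in wild type against 33.5, 26.1 and 30.1 CPM in the labelled mutant libraries. All labelled mutant libraries lay below all wild-type libraries. The mean fell from 40.6 ± 3.16 to 29.9 ± 3.67 CPM (SD, n = 3 each), and the log2 fold change was -0.44 ± 0.10 (SE; adjusted p of 0.00505 by edgeR). Within a library, the log2 ratio of GSTU5 to GSTU4 counts was 5.35, 5.66 and 4.67 in wild type against 3.92, 3.62 and 3.97 in the labelled mutant libraries, with no overlap (exact two-sided permutation p = 0.1, adjusted p = 0.1).

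GSTU2 was a weaker case. It had 1.30, 1.01 and 0.659 CPM in wild type against 0.441, 0.556 and 0.706 CPM in the labelled mutant libraries, from 36 to 67 counts per library. The groups overlapped, because wild-type replicate 3 was below labelled mutant replicate 3. The log2 fold change was -0.79 ± 0.28 (SE; adjusted p of 0.0443 by edgeR; range over alternatives 0.015 to 0.128). The call ended with limma-voom, with the replicate block (adjusted p = 0.0661) and without any of wild-type replicates 1 and 2 and labelled mutant replicates 1 and 2 (adjusted p of 0.125, 0.104, 0.128 and 0.0943).

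GSTU1, the closest relative of GSTU2, had 8.63, 5.32 and 5.76 CPM in wild type against 7.36, 7.63 and 7.57 CPM in the labelled mutant libraries. Wild-type replicate 1 was above all the labelled mutant libraries and the other wild-type libraries were below them. The log2 fold change was 0.21 ± 0.16 (SE; adjusted p of 0.308 by edgeR), with a 95% interval from -0.16 to 0.57. Without wild-type replicate 1, the library with the highest root markers, GSTU1 passed the test at 0.44 (edgeR adjusted p = 0.00201; range over alternatives 0.00201 to 0.721). The log2 ratio of GSTU2 to GSTU1 counts was -2.73, -2.40 and -3.13 in wild type against -4.06, -3.78 and -3.42 in the labelled mutant libraries, without overlap (exact two-sided permutation p = 0.1, adjusted p = 0.1).

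GSTU7, an enzyme linked to tolerance of the herbicide methyl viologen, also had its highest wild-type level in replicate 1. It had 5.78, 3.93 and 4.53 CPM in wild type against 5.56, 6.04 and 5.99 CPM in the labelled mutant libraries. The groups overlapped through wild-type replicate 1, which lay above labelled mutant replicate 1 and below the other two. The log2 fold change was 0.31 ± 0.13 (SE; adjusted p of 0.0755 by edgeR), with a 95% interval from 0.01 to 0.61. It passed without wild-type replicate 1, at 0.47 (edgeR adjusted p = 0.00426), and with limma-voom (adjusted p = 0.0431; range over alternatives 0.00426 to 0.224). Wild-type replicate 1 was the highest wild-type library in 8 of the 9 tested genes, all but GSTU4, and in 37.1% of all tested genes; the part of tissue makeup in this was not tested.

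GSTU3 was near the detection limit, with 1, 0 and 2 counts in wild type against 1, 3 and 3 in the labelled mutant libraries. A count of 0 in wild-type replicate 2 allows a level of up to 0.0452 CPM, the level of 3 counts there, and all 6 libraries were at 3 counts or fewer. No difference was detectable at this depth, and ratios of GSTU3 to its neighbours were not computed.

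**Figure D2:**
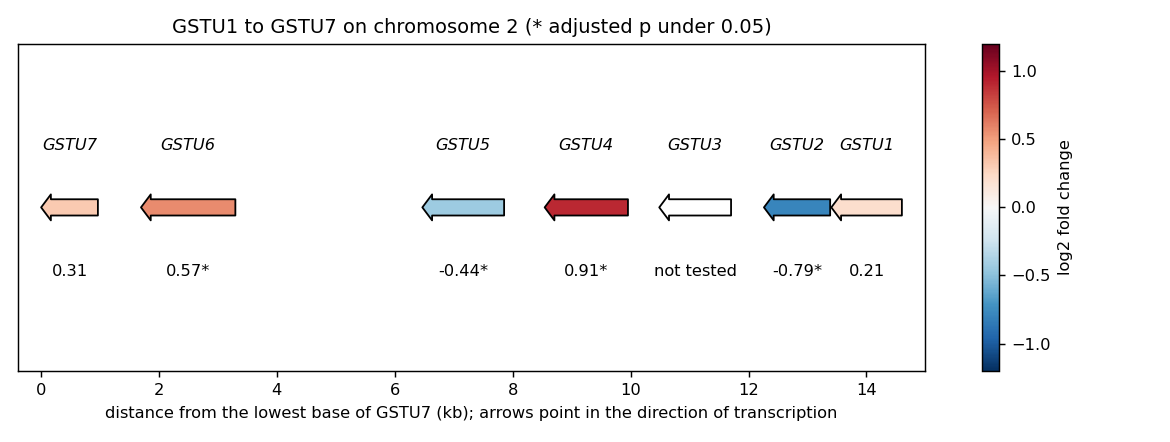
Map of GSTU1 to GSTU7 on chromosome 2, drawn to scale in kb from the lowest base of GSTU7, with arrows pointing in the direction of transcription, coloured by the log2 fold change of the labelled mutant libraries over wild type printed below each gene (* edgeR adjusted p under 0.05). GSTU4 (0.91) lies between GSTU5 (-0.44) and the untested GSTU3, and GSTU2 (-0.79) is next to GSTU1 (0.21).

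GSTU19, a safener-inducible enzyme, had by far the highest level of the 10. It had 193, 170 and 165 CPM in wild type against 179, 164 and 179 CPM in the labelled mutant libraries, or 9344 to 14589 counts per library. The groups overlapped, and the log2 fold change was -0.02 ± 0.08 (SE; adjusted p of 0.876 by edgeR), with a 95% interval from -0.197 to 0.16. A change of more than 0.197 in either direction lay outside this interval.

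Per kb of exon, which allows levels to be compared between genes, GSTU19 came first in wild type with 157 ± 13.5 CPM per kb (SD, n = 3) and GSTU5 second with 31.9 ± 2.49 CPM per kb. GSTU1, GSTU7, GSTU25 and GSTU24 followed, between 5.94 and 4.24 CPM per kb, and neighbours in this order overlapped over the libraries. GSTU10, GSTU2 and GSTU4 lay between 1.11 and 0.944 CPM per kb and also overlapped. GSTU3 was last. In the labelled mutant libraries GSTU19 was again first, at 155 ± 7.53 CPM per kb, but GSTU25 came second with 28.6 ± 2.13 CPM per kb. GSTU5 followed with 23.5 ± 2.89 CPM per kb, and then GSTU24 with 11.3 ± 1.07 CPM per kb. GSTU1 and GSTU7 overlapped at 6.80 and 6.61 CPM per kb, and the remaining neighbours in the order did not overlap.

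The 10 genes together had 242 ± 22.9 CPM in wild type against 265 ± 12.9 CPM in the labelled mutant libraries (n = 3 each, SD; exact two-sided permutation p = 0.2; adjusted p = 0.4 over 4 sums). The difference of 23.5 CPM was 36.5 CPM without wild-type replicate 1, 15.1 CPM without wild-type replicate 3, and 48.9 CPM when CPM was taken over nuclear counts, a smaller total. All 28 tau-class genes together had 493, 477 and 428 CPM against 509, 497 and 537 CPM, which did not overlap (exact permutation p = 0.1, the smallest possible; adjusted p = 0.4). That difference of 48.5 CPM was 29.4 CPM without wild-type replicate 3 and 101.4 CPM over nuclear counts. GSTU19 and GSTU20, which both have high levels, made up 65.1% of this sum in wild type against 63.97% in the labelled mutant libraries.

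The 18 other tau-class genes also went both ways. Of the 15 tested, 4 were higher and 6 lower, against 26.3% and 26.0% of all tested genes, and the median log2 fold change was 0.18. The largest rises were those of GSTU9 (1.43 ± 0.23, SE), GSTU17 (0.96 ± 0.15), which is known for a part in drought and light responses, and GSTU16 (0.84 ± 0.13). GSTU17 shares 71 exon bases with GSTU18 on the same strand, where reads were assigned to neither. The largest falls were those of GSTU28 (-1.31 ± 0.23), GSTU23 (-0.82 ± 0.15) and GSTU26 (-0.76 ± 0.24). GSTU26 follows GSTU25 on chromosome 1. Its groups overlapped and its call ended without wild-type replicate 1 or 3 or labelled mutant replicate 2 or 3 (edgeR adjusted p of 0.0509, 0.0529, 0.0756 and 0.0682). In the gap of the chromosome 2 cluster, GSTU6 lies between GSTU7 and GSTU5 and rose by 0.57 ± 0.17 (adjusted p of 0.0238 by edgeR); it was named after its value was seen.

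**Figure D3:**
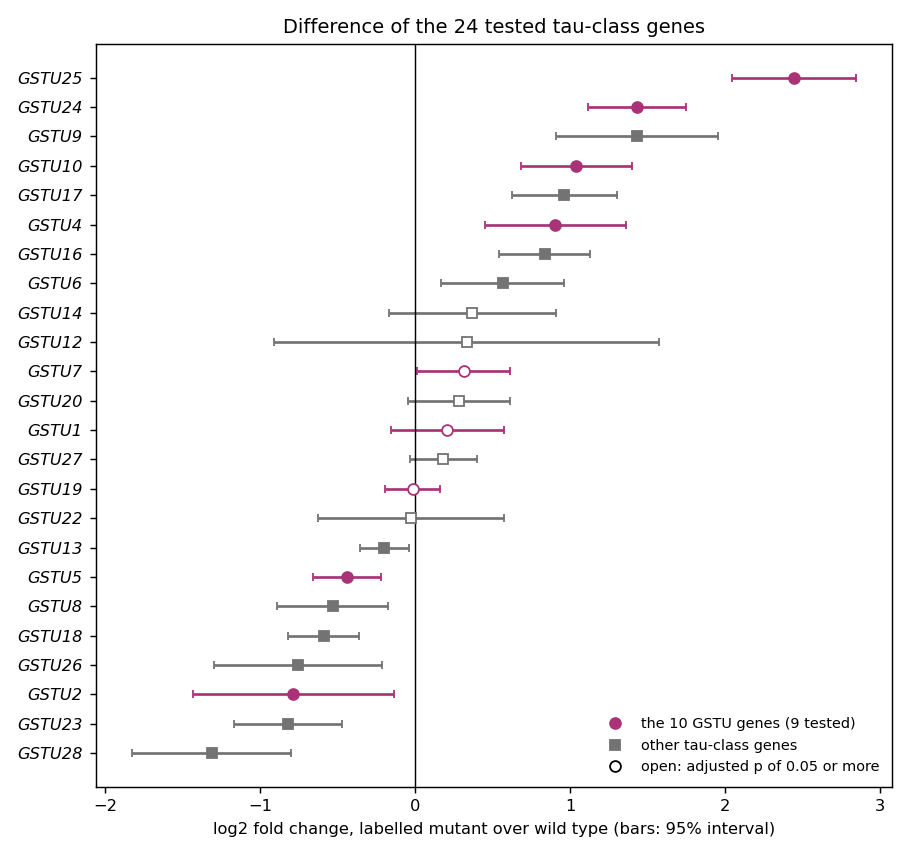
Log2 fold change of the labelled mutant libraries over wild type (horizontal axis) for the 24 tested tau-class genes, ordered by size, with 95% intervals; circles are the 9 tested genes of the 10, squares the other tau-class genes, and open symbols did not pass an edgeR adjusted p of 0.05. GSTU25 (2.45) is at the top and GSTU28 (-1.31) at the bottom, and 8 genes passed on each side of 0. Of all tested genes, 26.3% passed as higher and 26.0% as lower.

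Other classes of the superfamily are given for comparison. Of 13 phi-class genes, 7 were higher and 5 lower, against 26.3% and 26.0% of all tested genes, and the median log2 fold change was 0.36. GSTF12, which anthocyanins need to accumulate in the vacuole, rose from 1.596 ± 0.839 to 87.1 ± 11.1 CPM (SD, n = 3 each), and GSTF6, an enzyme of camalexin synthesis, rose from 9.74 ± 1.79 to 100.9 ± 11.1 CPM (SD, n = 3 each; log2 fold changes of 5.73 and 3.37, edgeR adjusted p of 1.5e-06 and 8.82e-07). GSTF5 rose by 4.49 on the log2 scale. GSTF13, GSTF8 and GSTF2 had log2 fold changes of -3.35, -0.80 and -0.53. GSTF6 shares 50-base stretches with GSTF7, and GSTF2 with GSTF3; GSTF8 overlaps AT2G47720 on the same strand. Of 12 genes of the zeta, theta, lambda, dehydroascorbate reductase and TCHQD classes, 6 were higher and 2 lower, against the same shares of all tested genes. DHAR1, a dehydroascorbate reductase that shares stretches with AT1G19550, rose from 90.1 ± 9.31 to 361 ± 15.9 CPM (SD, n = 3 each), whereas the plastid DHAR3 had a log2 fold change of -0.48. The lambda-class genes GSTL1 and GSTL3 rose by 2.19 and 0.498, and GSTL2 had -0.63.

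Of 12 tested genes that make, recycle, move and break down glutathione and its conjugates, 5 were higher and 2 lower, against 26.3% and 26.0% of all tested genes, and the median log2 fold change was 0.02. The vacuolar conjugate pumps ABCC3 and ABCC2 rose, by 1.06 ± 0.08 and 0.80 ± 0.07 (SE; edgeR adjusted p of 1.79e-05 and 3.29e-05), and so did the glutathione reductase GR1, by 0.68 ± 0.06. GGT1, a gamma-glutamyl transpeptidase of the cell wall space, fell from 14.8 ± 1.74 to 4.69 ± 0.305 CPM (SD, n = 3 each). GGT4, another gamma-glutamyl transpeptidase, rose by 0.59 ± 0.06 (SE, adjusted p of 0.000104 by edgeR) and was named after its value was seen. Phytochelatin synthase PCS1 had -0.27. The synthesis genes GSH1 (-0.09; edgeR adjusted p = 0.233) and GSH2 (-0.15; edgeR adjusted p = 0.0517) did not pass and were named after their values were seen.

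Of 18 tested genes for other detoxification enzymes and transporters, 12 were higher and 3 lower, against 26.3% and 26.0% of all tested genes, and the median log2 fold change was 0.88 against 0.01 for all tested genes. The glucosyltransferase UGT74E2 rose by 3.69 ± 0.17 (SE), and the aldo-keto reductases AKR4C9 and AKR4C8 by 2.38 ± 0.16 and 1.05 ± 0.08. CYP81D11, a cytochrome P450, had -1.84 ± 0.26, and the glucosyltransferases UGT73B1 and UGT75B1 had -0.62 and -0.29. UGT74E2 and UGT75B1 share some 50-base stretches with other genes. The call of UGT75B1 ended in 4 of the 6 fits that left out a library (edgeR adjusted p up to 0.0854). Of 12 regulators, 8 were higher and 0 lower by edgeR, again against 26.3% and 26.0% of all tested genes, and the lowest log2 fold change among them was 0.06. These lists were chosen with earlier results of these data known. NAC13, NAC032 and NAC016 rose by 2.02 ± 0.08, 1.19 ± 0.11 and 1.01 ± 0.15 (SE). TGA5 (0.40; edgeR adjusted p = 0.00187) and SCL14 (0.42; edgeR adjusted p = 0.0012) were higher, while TGA2 (0.13), TGA6 (0.06) and NAC017 (0.10) did not pass; these 5 were named after their values were seen.

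**Figure D4:**
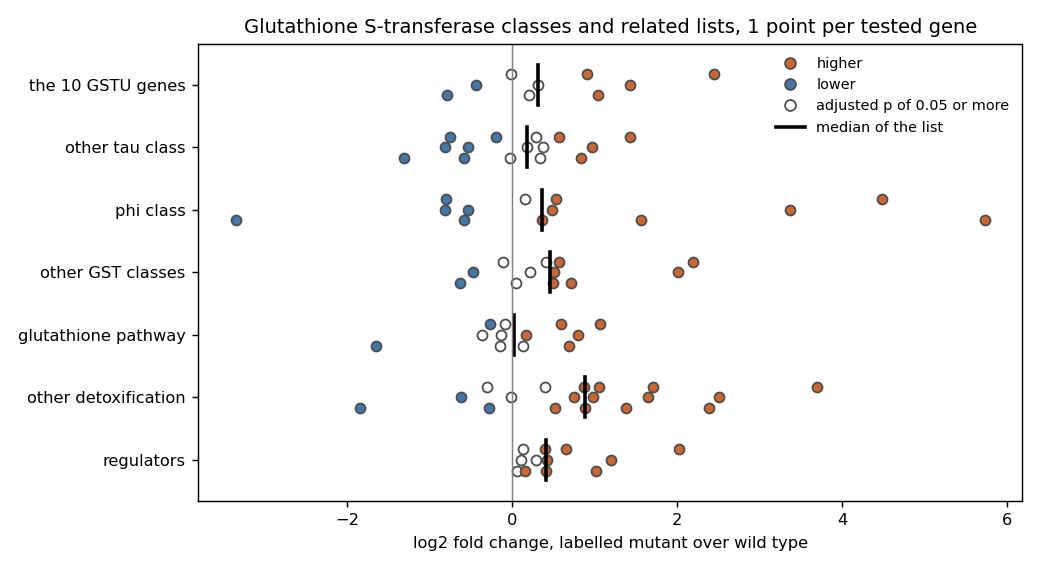
Log2 fold change of the labelled mutant libraries over wild type for each tested gene (1 point per gene; orange higher, blue lower, white not passing an edgeR adjusted p of 0.05) in the 10 GSTU genes and 6 comparison lists, with the list median as a black bar. The medians run from 0.02 for the glutathione pathway to 0.88 for other detoxification genes, and the phi class spans -3.35 to 5.73.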

How the data were processed

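Total RNA was depleted of ribosomal RNA and made into strand-specific single-end libraries, per the labels' protocols. Reads were aligned with STAR on TAIR10 and counted with featureCounts, per the submitters' processing notes; no source used here states the STAR version. What was deposited is the raw count of each gene, made with featureCounts 2.0.0 on the reverse strand over exons, with reads of several alignments counted at each, per the file headers. Library totals therefore count alignments.

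The test was the quasi-likelihood test of edgeR 4.0.16 (R 4.3.3; TMM, filterByExpr, group as sole covariate, two-sided, Benjamini-Hochberg adjustment over 21805 tested genes, threshold 0.05). CPM is the count per 1000000 of the TMM-adjusted total. In counts simulated for this comparison over 21805 genes, the test called 56% of 50 genes given a log2 change of 0.5. It called 84% of 50 given 1, 98% of 50 given 2, and 0.0555% of 21605 unchanged genes. In the data, 52.4% of tested genes passed. The Benjamini-Hochberg adjustment depends on the share of changed genes, so these simulated rates do not carry over to the data. Alternatives were DESeq2 1.42.0, DESeq2 size factors, nuclear genes only, no filter, limma-voom (limma 3.58.1), the replicate block and leaving out each library. Nothing in the labels says that libraries of a group came from separate plants, and the p-values reflect spread between libraries that may be technical; pairs within a group differed by more than counting noise (chi-square per degree of freedom 11.3 to 39.9). The series text speaks of a smaller number of replicates than the 3 titles per group.

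Names came from RefSeq TAIR10.1, in which all 32548 nuclear identifiers matched and 99.95% had the same coordinates. Coding identity came from global alignment (Biopython 1.88). Floors and intervals cover counting or model error only. The genes, lists and tests were chosen with earlier results of these data known. The text names all 10 genes, both targeted genes, the 3 largest called changes in each direction of the other tau-class genes, and up to 3 called genes in each direction with the smallest adjusted p from every other list.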

Additional observations from a re-analysis of the deposited data

How the results depend on the processing

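The calls of GSTU4, GSTU5, GSTU10, GSTU24 and GSTU25 held in all 12 alternatives, with log2 fold changes of 0.72 to 1.16, -0.54 to -0.36, 0.94 to 1.21, 1.34 to 1.61 and 2.25 to 2.67. GSTU2 lost its call with limma-voom (-0.74) and with the replicate block (-0.77), and ranged from -1.02 to -0.56 when a library was left out. GSTU7 passed with limma-voom (0.35) and ranged from 0.19 to 0.47 without 1 library; GSTU1 ranged from 0.0746 to 0.44. GSTU19, which did not pass anywhere, changed sign without wild-type replicate 1 (0.0535) and without labelled mutant replicate 2 (0.0165), within -0.0634 to 0.0535. The number of the 10 genes called lower was 1 with limma-voom, 1 with the replicate block and 1 to 2 without a library, and the number called higher was 4 to 6. Without a library, 3 to 6 other tau-class genes and 2 to 4 glutathione pathway genes were called lower. Calls over all tested genes moved too. Without a library 4678 to 5659 were higher and 4833 to 5587 lower, against 5742 and 5679 with all libraries. The summed level of the 10 genes differed by 15.1 to 36.5 CPM and that of all 28 tau-class genes by 29.4 to 62.1 CPM without a library. The cause was not tested. Same-numbered libraries had correlations of deviations of 0.19, 0.07 and -0.002, and the other pairs had -0.145 to 0.095. Correlations this weak, of 3 same-numbered pairs, cannot decide whether the numbers pair the libraries. Apart from GSTU2 the block changed no call of the 10 genes. Ratios of GSTU3 to its neighbours could not be computed, since a library had 0 counts. Depth limits GSTU3, and GSTU2, GSTU4 and GSTU10 to a lesser degree.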
